A study of Mus musculus with 6 samples.

Results

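The set comprised 9 homing genes of B cells, followed over all 6 arrays: the chemokine receptor genes Ccr7, Cxcr5, Ccr6, Cxcr4 and Ccr9, the lipid receptor genes S1pr1 and Gpr183, and the integrin α chain genes Itgal and Itga4. Every probe set annotated with just 1 of these symbols was taken, which gave 19 of the 45101 probe sets on the array and 19 of the 34945 that carry a single gene symbol. A probe set is the group of short oligonucleotides that reports on a transcript, and its signal is an intensity with no absolute unit, so levels are compared between arrays and not between probe sets. Summed signals of a gene list are likewise compared between arrays, and the brightest probe sets weigh most in them. Ccr9 and Itga4 had 5 probe sets each, Itgal and Gpr183 had 2 each, and Ccr7, Cxcr5, Ccr6, Cxcr4 and S1pr1 had 1 each. A gene's brightest probe set, by its mean log2 signal over the 6 arrays, is called its leading one.

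Chemokine receptors and the sphingosine and oxysterol receptors are G protein-coupled receptors that steer lymphocytes along gradients of their ligands. CXCR4, through CXCL12, holds developing B cells in the marrow, S1PR1 guides cells into blood and lymph, and CXCR5 and CCR7 draw mature B cells into follicles and towards T cell zones. GPR183 (EBI2) places activated B cells at the outer follicle, CCR6 and CCR9 respond to CCL20 and CCL25 in mucosal tissue, and the integrins LFA-1 (Itgal with Itgb2) and α4 with β1 or β7 hold cells on vessel walls and stroma.

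The 3 groups, with 2 arrays each, were TAK1-deficient Igκ+ cells (genotype label mb-1/TAK1f/f), wild-type Igλ+ cells and wild-type Igκ+ cells (both labelled mb-1/TAK1+/+). All were bone marrow B cells of untreated C57BL/6 mice of 8 to 12 weeks with the sexes mixed, cleared of Gr1+, DX5+, CD11b+, Ter119+ and CD3+ cells and sorted by surface light chain. Map3k7 encodes TAK1, a kinase acting between immune receptors and the NF-κB and MAP kinase pathways, and mb-1 is an older name of Cd79a, a gene active from early B cell stages. The labels name no Cre, do not say how far TAK1 was lost, and leave unstated whether the 2 arrays of a group are separate animals, so p-values cover only the spread between these arrays. In RNA from a sorted population, fewer cells of a type and less RNA per cell cannot be told apart.

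The TAK1-deficient arrays stood apart from the other 4, and genotype and array quality cannot be told apart. Spiked hybridization controls had geometric mean signals of 47043 and 41197 in TAK1-deficient, 4608 and 4474 in wild-type Igλ+ and 3994.5 and 3984.9 in wild-type Igκ+ samples. The Actb signal at the 3′ end over that at the 5′ end was 6.28 and 4.18 in TAK1-deficient samples, against 1.25 to 1.58 in wild-type samples. The 95th percentile of control probe sets with no target was 77.7 and 75.7 on TAK1-deficient arrays, against 10.3 to 17.4 on wild-type arrays. Pearson's r of log2 signals over single-gene probe sets, which are not independent, was 0.912 for the TAK1-deficient pair, 0.966 to 0.985 among wild-type arrays and 0.487 to 0.556 between the genotypes. Differences followed the wild-type level, from a median log2 difference of 2.97 in the lowest decile to -1.48 in the highest, so each result is also given after a level adjustment, in which the lowess trend against mean wild-type level was taken off each TAK1-deficient array. The leading Map3k7 probe set had signals of 346 and 599 on TAK1-deficient arrays, 2149 and 1957 on wild-type Igλ+ arrays and 2196 and 1805 on wild-type Igκ+ arrays, a log2 difference of -2.09 from wild-type Igκ+ cells (adjusted p = 0.000369, and 0.111 after level adjustment). Of the 6 Map3k7 probe sets, 4 were called lower as deposited and 4 after level adjustment, 2 of them in both (-2.33, and -1.14 after adjustment, adjusted p = 0.0216; and -2.23, and -0.78, adjusted p = 0.04). The others called after adjustment were not lower in signal on both TAK1-deficient arrays. That with 0.30 as deposited and -1.16 after adjustment had 109 and 98.5 there, above all wild-type arrays (72.8 to 90.5). That with -0.99 and -2.37 had 12.4, at control level, and 102, overlapping the wild-type arrays (65.8 to 129). The position of the Map3k7 probe sets against the floxed stretch is not known, so they do not check the genotype.

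B cell markers were measured on every array, with a summed signal over 8 genes of 62441 and 71623 in TAK1-deficient cells, 53890 and 55327 in wild-type Igλ+ cells and 52065 and 55589 in wild-type Igκ+ cells. Of the 8, Cd79b, Ms4a1 and Ebf1 were called higher than in wild-type Igκ+ cells and Cd79a (-1.36) and Blk (-1.21) lower, where 48.2% and 32.1% of all genes were higher and lower. The direction depended on the scaling: 5 were higher and 0 lower after level adjustment, 1 higher and 2 lower under quantile normalization, and 0 higher and 8 lower both under median centring and under scaling on the spiked controls. After level adjustment 24.5% of all genes were higher and 16.4% lower. Of all probe sets, 26.2% were higher and 33.2% lower under quantile normalization. The shares were 27.1% and 46.5% under median centring, and 15.8% and 53.6% under spike-in scaling. Ms4a1, which encodes CD20, had 21780 and 26569 in TAK1-deficient cells, 10291 and 11336 in wild-type Igλ+ cells and 10466 and 10087 in wild-type Igκ+ cells, and its log2 difference of 1.23 became -0.54 under median centring and -2.23 under spike-in scaling. Ms4a1 was the brightest of the 8 on the TAK1-deficient arrays, so it weighed most in their summed signal.

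Promoter sequences from RefSeq (mouse build GRCm38.p6) were found for 5 of the 9 genes, Cxcr4, Itga4, Ccr9, Gpr183 and Ccr6, with 6 sequences since Ccr6 has 2 start sites. The 250 bases before each start site were searched on both strands for the κB pattern (GGG and CC with any 5 bases between them), the AP-1 pattern TGANTCA and the forkhead pattern GTAAACA, which 45.8%, 6.75% and 3.17% of all 32851 promoters of that length hold. The κB pattern was found before 1 Ccr6 start site, where 2 overlapping matches (GGGGAATTCC and GGGAATTCCC) begin 81 and 80 bases upstream, and before the Ccr9 start site, where GGTGGCTCCC (the pattern on the other strand) and GGGTTACTCC begin 83 and 64 bases upstream. The other 4 sequences held none of the 3 patterns. Ccr6 and Ccr9 are shown because both carry the pattern and their signals differed in opposite directions between genotypes, and Gpr183 is shown as a member without a match. They run 5′ to 3′ on the strand of the gene, and capitals mark the κB matches.
Ccr6 (chr17:8242276-8242525, plus strand): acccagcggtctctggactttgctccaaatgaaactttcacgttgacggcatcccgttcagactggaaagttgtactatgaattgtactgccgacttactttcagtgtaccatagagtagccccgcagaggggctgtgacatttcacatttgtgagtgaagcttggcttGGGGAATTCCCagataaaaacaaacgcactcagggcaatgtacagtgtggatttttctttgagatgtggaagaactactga
Ccr9 (chr9:123766961-123767210, plus strand): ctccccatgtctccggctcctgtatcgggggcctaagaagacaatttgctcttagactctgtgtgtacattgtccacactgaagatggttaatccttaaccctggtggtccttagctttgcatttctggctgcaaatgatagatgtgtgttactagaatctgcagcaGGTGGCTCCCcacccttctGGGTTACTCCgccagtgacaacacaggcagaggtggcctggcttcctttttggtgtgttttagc
Gpr183 (chr14:121965194-121965443, minus strand): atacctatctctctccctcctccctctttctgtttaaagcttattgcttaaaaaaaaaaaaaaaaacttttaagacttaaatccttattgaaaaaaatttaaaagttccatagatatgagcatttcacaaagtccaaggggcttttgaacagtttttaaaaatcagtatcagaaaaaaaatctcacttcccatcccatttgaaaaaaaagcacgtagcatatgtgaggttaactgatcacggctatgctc

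Between the genotypes, with Igκ on both sides, 8 of the 9 genes had lower signals and 1, Ccr9, had higher signals in TAK1-deficient Igκ+ cells by their leading probe sets. Of the 19 probe sets, 12 of 8 genes were lower and 7 were higher (limma, Benjamini-Hochberg adjusted p under 0.05 over 34945 probe sets), against 26.1% of all probe sets lower and 50.8% higher. The 7 higher ones were all 5 of Ccr9 and 2 of Itga4. No probe set had overlapping groups, with 12 lower and 7 higher on every array, against 31.5% lower and 57.9% higher over all probe sets. The median log2 difference was -1.37 over the 19 and 1.06 over all. An exact permutation test on 2 arrays against 2 cannot give a two-sided p below 0.333.

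The members were next read against probe sets of like wild-type level. Of the 19, 10 lie in the highest 2 deciles of wild-type level, and 10 of these 10 were lower, where 85.3% of all probe sets were lower. The 5 Ccr9 probe sets lie in the lower 5 deciles and were higher, where 85.7% of all probe sets were higher. Between them, 2 of 4 were lower and 2 of 4 higher, against 29.6% and 24.9%. After level adjustment 5 probe sets were lower (Ccr7, Cxcr5, Ccr6, 1 of Itgal and 1 of Itga4) and 4 higher (3 of Ccr9 and 1 of Itga4), against 18.5% lower and 22.3% higher over all, and 10 did not pass. Among the 10 in the highest deciles 4 were then lower (21.2% of all there), and among the 5 of Ccr9 3 were higher (25.5% of all there). Without TAK1-deficient replicate 1 or replicate 2, 4 probe sets were higher in place of 7 in both cases.

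**Figure D1:**
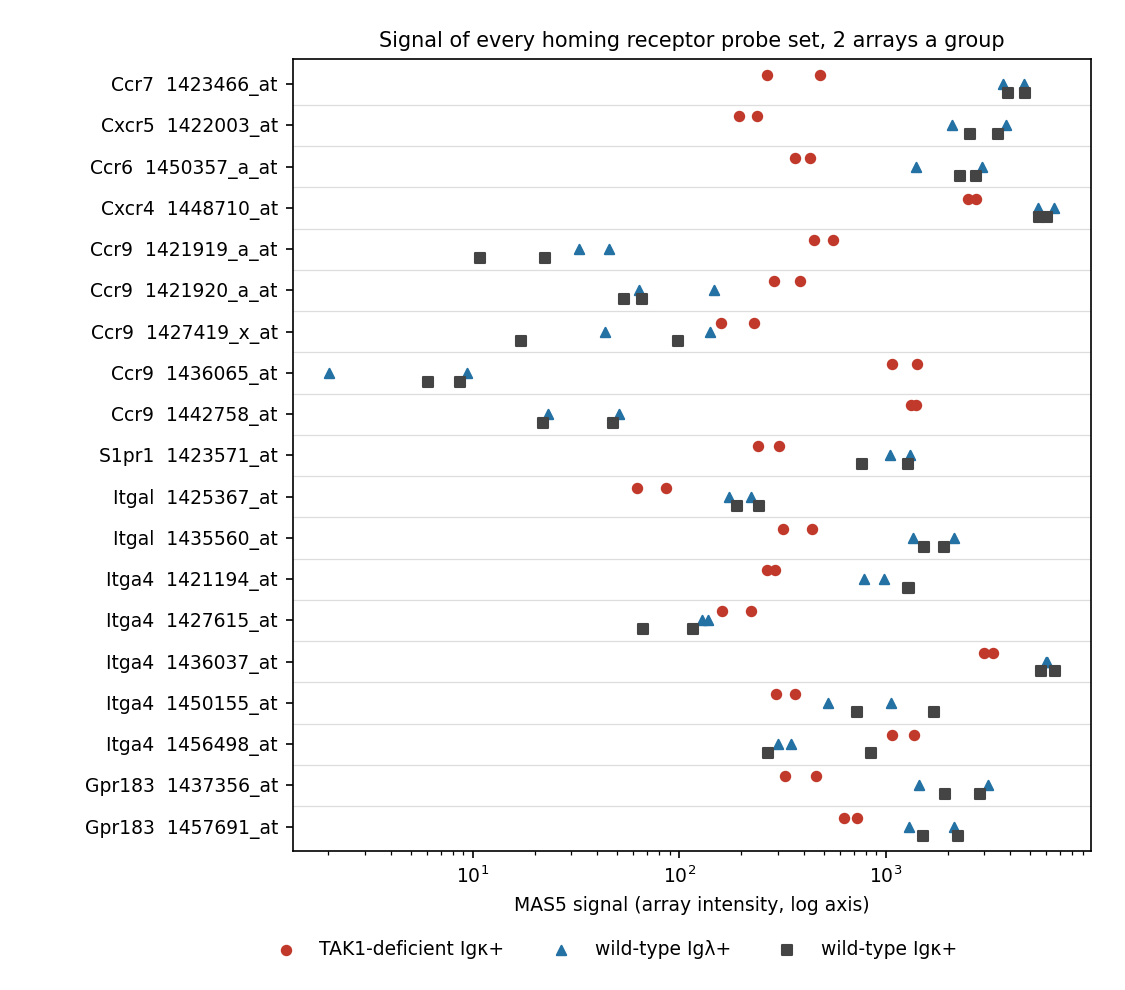
Signal (array intensity, log axis) of each of the 19 probe sets on each array, with TAK1-deficient Igκ+ arrays as circles, wild-type Igλ+ as triangles and wild-type Igκ+ as squares. The Ccr7, Cxcr5 and Ccr6 circles lie left of every wild-type point, and the Ccr9 circles lie right of them.

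Ccr7, the receptor for CCL19 and CCL21, kept its lower call after level adjustment. Its signal was 266 and 478 in TAK1-deficient Igκ+ cells, 4698 and 3700 in wild-type Igλ+ cells and 3916 and 4748 in wild-type Igκ+ cells. Both TAK1-deficient arrays were below all 4 wild-type arrays. It fell by 3.54 ± 0.29 (SE) on the log2 scale against wild-type Igκ+ cells (adjusted p = 3.54e-05), and the level-adjusted difference was -2.16 (adjusted p = 0.00105). The median log2 difference of the highest decile, in which Ccr7 lies, was -1.48.

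Cxcr5, the follicle-homing receptor for CXCL13, had signals of 194 and 238 in TAK1-deficient Igκ+ cells, 3811 and 2103 in wild-type Igλ+ cells and 2563 and 3492 in wild-type Igκ+ cells. The TAK1-deficient arrays did not overlap with any wild-type array. It fell by 3.70 ± 0.32 (SE) on the log2 scale (adjusted p = 4.41e-05), and by 2.18 after level adjustment (adjusted p = 0.00185).

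Ccr6, the receptor for CCL20, had signals of 431 and 364 in TAK1-deficient Igκ+ cells, 2934 and 1394 in wild-type Igλ+ cells and 2299 and 2750 in wild-type Igκ+ cells. The TAK1-deficient arrays were again the lowest 2, although the wild-type Igλ+ arrays differed from each other by 1.06 on the log2 scale. Ccr6 fell by 2.62 ± 0.35 (SE) on the log2 scale against wild-type Igκ+ cells (adjusted p = 0.000308). Its level-adjusted difference, -1.10, was near the threshold (adjusted p = 0.0401).

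Cxcr4, the receptor that retains B cell precursors in the marrow through CXCL12, did not keep its call under 2 of the other scalings. Its signal was 2741 and 2493 in TAK1-deficient Igκ+ cells, 6497 and 5466 in wild-type Igλ+ cells and 5544 and 6019 in wild-type Igκ+ cells. The TAK1-deficient arrays were lower than all 4 others. It fell by 1.14 ± 0.14 (SE) on the log2 scale (adjusted p = 0.0002), which is less than the median of its decile, -1.48. The call was lost under quantile normalization (log2 difference -0.34, adjusted p = 0.101), and the direction turned after level adjustment (0.06, adjusted p = 0.759).

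Ccr9, the receptor for CCL25, was the member with higher signals in TAK1-deficient cells. Its leading probe set, 1442758_at, had signals of 1394 and 1327 in TAK1-deficient Igκ+ cells, 23.2 and 50.9 in wild-type Igλ+ cells and 47.7 and 21.9 in wild-type Igκ+ cells. This probe set leads through the TAK1-deficient arrays: its mean over the 4 wild-type arrays was 35.9, against 83 for 1421920_a_at and 75.3 for 1427419_x_at. The groups by genotype were far apart, with all 4 wild-type arrays low. It rose by 4.81 ± 0.40 (SE) on the log2 scale against wild-type Igκ+ cells (adjusted p = 3.57e-05), and by 2.52 after level adjustment (adjusted p = 0.00273).

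A second Ccr9 probe set, 1436065_at, had signals of 1419 and 1076 in TAK1-deficient Igκ+ cells, 2.01 and 9.36 in wild-type Igλ+ cells and 6.08 and 8.69 in wild-type Igκ+ cells. All 4 wild-type signals were at or below the 95th percentile of controls with no target, so the change is a bound, at least 45-fold higher than in wild-type Igκ+ cells and at least 40.2-fold higher than in wild-type Igλ+ cells. Against wild-type Igκ+ cells limma gave an adjusted p of 1.48e-05, and 0.000932 after level adjustment, where the bounds fell to at least 5.54-fold and at least 4.94-fold. The fitted ratio to wild-type Igκ+ cells, which is no bound, was 15.8 under median centring and 8.37 under spike-in scaling. Probe set 1421919_a_at had 447 and 557 in TAK1-deficient Igκ+ cells, 45.7 and 32.7 in wild-type Igλ+ cells and 22.5 and 10.9 in wild-type Igκ+ cells, and rose by 4.0 ± 0.33 (SE) on the log2 scale (adjusted p = 3.67e-05) and by 1.51 after level adjustment (adjusted p = 0.0103).

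The other two Ccr9 probe sets were less clear. The signals of 1421920_a_at were 288 and 386 in TAK1-deficient Igκ+ cells, 148 and 64 in wild-type Igλ+ cells and 66.2 and 53.9 in wild-type Igκ+ cells, with a log2 difference of 2.21 ± 0.41 (SE) from wild-type Igκ+ cells (limma, adjusted p = 0.0017) that became 0.65 after level adjustment (adjusted p = 0.24). Those of 1427419_x_at were 159 and 231 in TAK1-deficient Igκ+ cells, 141 and 43.6 in wild-type Igλ+ cells and 98.8 and 17.2 in wild-type Igκ+ cells, with 1.75 ± 0.67 (SE; limma, adjusted p = 0.0443) that became -0.02 (adjusted p = 0.98). The wild-type signals of 1427419_x_at spread widely within each pair, and without wild-type Igκ+ replicate 2 (0.85, adjusted p = 0.278) or TAK1-deficient replicate 2 (1.5, adjusted p = 0.167) or replicate 1 (2.0, adjusted p = 0.0827) it did not pass. Under quantile normalization, median centring and spike-in scaling, 1421920_a_at had log2 differences of 0.53, 0.44 and -0.84 and 1427419_x_at had -0.69, -0.02 and -1.05, and none of these passed.

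Ccr9 is also expressed in T cell precursors and plasmacytoid dendritic cells, so their marker genes are given beside it. The summed signal of 12 T cell markers was 5951 and 6320 in TAK1-deficient cells, 612 and 418 in wild-type Igλ+ cells and 455 and 428 in wild-type Igκ+ cells, and 9 of 12 were called higher and 0 lower, where 48.2% and 32.1% of all genes were. After level adjustment 3 were higher (Cd8b1, Bcl11b and Icos) and 2 lower (Cd3d and Thy1, both at control level on the TAK1-deficient arrays), against 24.5% and 16.4% of all genes, and under spike-in scaling 3 were higher and 2 lower. Bcl11b, a T lineage transcription factor, had 2431 and 2313 in TAK1-deficient cells, 18.9 and 14.6 in wild-type Igλ+ cells and 16 and 5.07 in wild-type Igκ+ cells. With Icos (1046 and 1138) it made up most of the summed signal in TAK1-deficient cells. Of the CD3 chain genes, Cd3e had 271 and 287 in TAK1-deficient cells, 40.2 and 7.86 in wild-type Igλ+ cells and 2.15 and 27.5 in wild-type Igκ+ cells (called higher, adjusted p = 0.000763, and 0.392 after level adjustment). Cd3g had 441 and 279 in TAK1-deficient cells, 24.8 and 26.8 in wild-type Igλ+ cells and 28.7 and 35.6 in wild-type Igκ+ cells (called higher, adjusted p = 0.000132, and 0.232 after level adjustment). Cd3d had 71.4 and 73.7 in TAK1-deficient cells, below the 95th percentile of controls with no target, 37.5 and 11.6 in wild-type Igλ+ cells and 22.1 and 47.2 in wild-type Igκ+ cells. The 7 plasmacytoid dendritic cell markers summed to 6209 and 6421 in TAK1-deficient cells, 6923 and 6734 in wild-type Igλ+ cells and 6170 and 7057 in wild-type Igκ+ cells. Tcf4, which B cells also express, made up most of that sum, with 4554 and 4274 in TAK1-deficient cells, 3932 and 5064 in wild-type Igλ+ cells and 4631 and 5638 in wild-type Igκ+ cells. Of the 7, Cox6a2 and Klk1 were called higher and Bst2 lower, and after level adjustment Cox6a2 and Tcf4 were higher and 0 lower. Cox6a2 had 777 and 841 in TAK1-deficient cells, 264 and 259 in wild-type Igλ+ cells and 122 and 82.7 in wild-type Igκ+ cells (2.82, adjusted p = 9.9e-05, and 2.08 after level adjustment, adjusted p = 0.0022), but -0.42 under spike-in scaling (adjusted p = 0.281), where 0 of the 7 were higher and 4 lower. Under spike-in scaling 15.8% of all probe sets were higher and 53.6% lower. The part of other cells in the Ccr9 result was not tested.

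S1pr1, the receptor for sphingosine 1-phosphate, had signals of 305 and 241 in TAK1-deficient Igκ+ cells, 1047 and 1316 in wild-type Igλ+ cells and 1277 and 768 in wild-type Igκ+ cells. The TAK1-deficient arrays were the 2 lowest. It fell by 1.81 ± 0.32 (SE) on the log2 scale (adjusted p = 0.0013), close to the median of its decile, -1.44, and after level adjustment the difference of -0.61 was not past the threshold (adjusted p = 0.166).

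Gpr183, the oxysterol receptor, had 2 probe sets. The leading one, 1457691_at, had signals of 630 and 722 in TAK1-deficient Igκ+ cells, 2135 and 1299 in wild-type Igλ+ cells and 1520 and 2230 in wild-type Igκ+ cells, and 1437356_at had 459 and 326 in TAK1-deficient Igκ+ cells, against 3135 and 1451 in wild-type Igλ+ cells and 1937 and 2850 in wild-type Igκ+ cells. Both were lower on both TAK1-deficient arrays. The log2 differences were -1.43 ± 0.30 (SE; adjusted p = 0.00353) and -2.55 ± 0.39 (SE; adjusted p = 0.000664), and after level adjustment they were 0.03 (adjusted p = 0.947) and -1.03 (adjusted p = 0.0745), so neither call was kept.

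Itgal, which encodes the α chain of LFA-1, was measured by 2 probe sets. The leading one, 1435560_at, had signals of 440 and 317 in TAK1-deficient Igκ+ cells, 2135 and 1362 in wild-type Igλ+ cells and 1920 and 1530 in wild-type Igκ+ cells, with a log2 difference of -2.15 ± 0.30 (SE; limma, adjusted p = 0.000393) that was not past the threshold after level adjustment (-0.70, adjusted p = 0.104). The other probe set, 1425367_at, had 62.7 and 86 in TAK1-deficient Igκ+ cells, 223 and 174 in wild-type Igλ+ cells and 190 and 243 in wild-type Igκ+ cells. Here 1 of the TAK1-deficient signals was within the control level, the log2 difference was -1.37 ± 0.32 (SE; limma, adjusted p = 0.0055), and the level-adjusted difference of -1.84 passed (adjusted p = 0.00441). Without TAK1-deficient replicate 1 its adjusted p was 0.051. Itgb2, the β chain partner of Itgal, had signals of 542 and 685 in TAK1-deficient cells, 2819 and 1658 in wild-type Igλ+ cells and 1993 and 1957 in wild-type Igκ+ cells, with a log2 difference of -1.67 (adjusted p = 0.0011) and, after level adjustment, -0.16 (adjusted p = 0.649).

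Itga4, the α4 integrin chain, had probe sets that disagreed. The leading one, 1436037_at, had 2995 and 3323 in TAK1-deficient Igκ+ cells, 6045 and 5963 in wild-type Igλ+ cells and 5646 and 6598 in wild-type Igκ+ cells. It fell by 0.95 ± 0.13 (SE) on the log2 scale (adjusted p = 0.00036), but not under quantile normalization (-0.26, adjusted p = 0.137), and turned to 0.24 after level adjustment (adjusted p = 0.154). Probe set 1421194_at had 266 and 292 in TAK1-deficient Igκ+ cells, 982 and 782 in wild-type Igλ+ cells and 1286 and 1296 in wild-type Igκ+ cells. It was lower by a log2 difference of -2.15 ± 0.24 (SE; limma, adjusted p = 0.00014), which was -0.96 after level adjustment (adjusted p = 0.017). These 2 gave lower values on both TAK1-deficient arrays.

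The remaining 3 Itga4 probe sets varied more between arrays. Probe set 1450155_at had 294 and 364 in TAK1-deficient Igκ+ cells, 526 and 1066 in wild-type Igλ+ cells and 727 and 1704 in wild-type Igκ+ cells (log2 difference -1.72 ± 0.48 SE, limma adjusted p = 0.012), and did not pass without TAK1-deficient replicate 1 (adjusted p = 0.0537) or wild-type Igκ+ replicate 2 (adjusted p = 0.0897). The 2 higher ones were 1456498_at, with 1068 and 1369 in TAK1-deficient Igκ+ cells, 300 and 348 in wild-type Igλ+ cells and 270 and 853 in wild-type Igκ+ cells (1.30 ± 0.49 SE, adjusted p = 0.0429), and 1427615_at, with 161 and 223 in TAK1-deficient Igκ+ cells, 129 and 138 in wild-type Igλ+ cells and 117 and 67.1 in wild-type Igκ+ cells (0.97 ± 0.35 SE, adjusted p = 0.0357). After level adjustment 1456498_at was 1.59 (adjusted p = 0.0378), while 1427615_at was -0.23 (adjusted p = 0.637) and 1450155_at -0.64 (adjusted p = 0.309). Probe set 1456498_at kept its call without wild-type Igκ+ replicate 2 but lost it without any other single array (adjusted p from 0.0565 to 0.226, the last without wild-type Igκ+ replicate 1, where the difference was 0.50). Probe set 1427615_at lost its call without TAK1-deficient replicate 1 (adjusted p = 0.0674) or 2 (0.208), and without wild-type Igκ+ replicate 2 (0.193). Spike-in scaling gave -2.06 for 1456498_at (adjusted p = 0.00344) and -1.98 for 1427615_at (adjusted p = 0.00163), the opposite direction, and quantile normalization gave -1.28 for 1427615_at (adjusted p = 0.0142).

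The β partners of Itga4 split as deposited, after level adjustment and under quantile normalization and median centring, but both were lower under scaling on the spiked controls. Itgb7, which pairs with it in the mucosal homing receptor, had 323 and 371 in TAK1-deficient cells, 5077 and 2152 in wild-type Igλ+ cells and 3181 and 3313 in wild-type Igκ+ cells, a log2 difference of -3.17 (limma, adjusted p = 0.000162) and, after level adjustment, -1.68 (adjusted p = 0.00946). Itgb1, its other partner, had 1770 and 1685 by its leading probe set in TAK1-deficient cells, 256 and 205 in wild-type Igλ+ cells and 236 and 289 in wild-type Igκ+ cells, a log2 difference of 2.65 (adjusted p = 8.28e-05) and, after level adjustment, 2.39 (adjusted p = 0.001). Under quantile normalization, median centring and spike-in scaling Itgb1 had 3.06, 0.89 and -0.71 (adjusted p = 5.23e-05, 0.0238 and 0.0454) and Itgb7 -3.72, -4.93 and -6.41. Of the 6 Itgb1 probe sets, 5 were called higher and 0 lower, and 5 higher and 1 lower after level adjustment.

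Counts of calls moved with the scaling of the arrays. Quantile normalization gave 11 member probe sets lower and 4 higher (33.2% and 26.2% of all), median centring gave 12 and 3 (46.5% and 27.1%), and scaling on the spiked controls gave 14 and 3 (53.6% and 15.8%). Ccr7 had log2 differences of -4.04, -5.30 and -6.77 under these, Cxcr5 of -4.99, -5.47 and -6.83, and the leading Ccr9 probe set of 4.54, 3.04 and 1.72, all of them called. Against wild-type Igκ+ cells, the Ccr9 probe sets 1421920_a_at and 1427419_x_at, which were brighter than the leading one in wild-type cells, were called under none of these. Against wild-type Igλ+ cells the counts were 11 lower and 4 higher (33.4% and 26.5%), 13 and 3 (45.7% and 26.5%), and 15 and 2 (53.7% and 14.3%). The 15 lower under spike-in scaling included 1421920_a_at of Ccr9 (-1.32, limma adjusted p = 0.0267). There 1421919_a_at of Ccr9 was not called (0.35, adjusted p = 0.492).

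**Figure D2:**
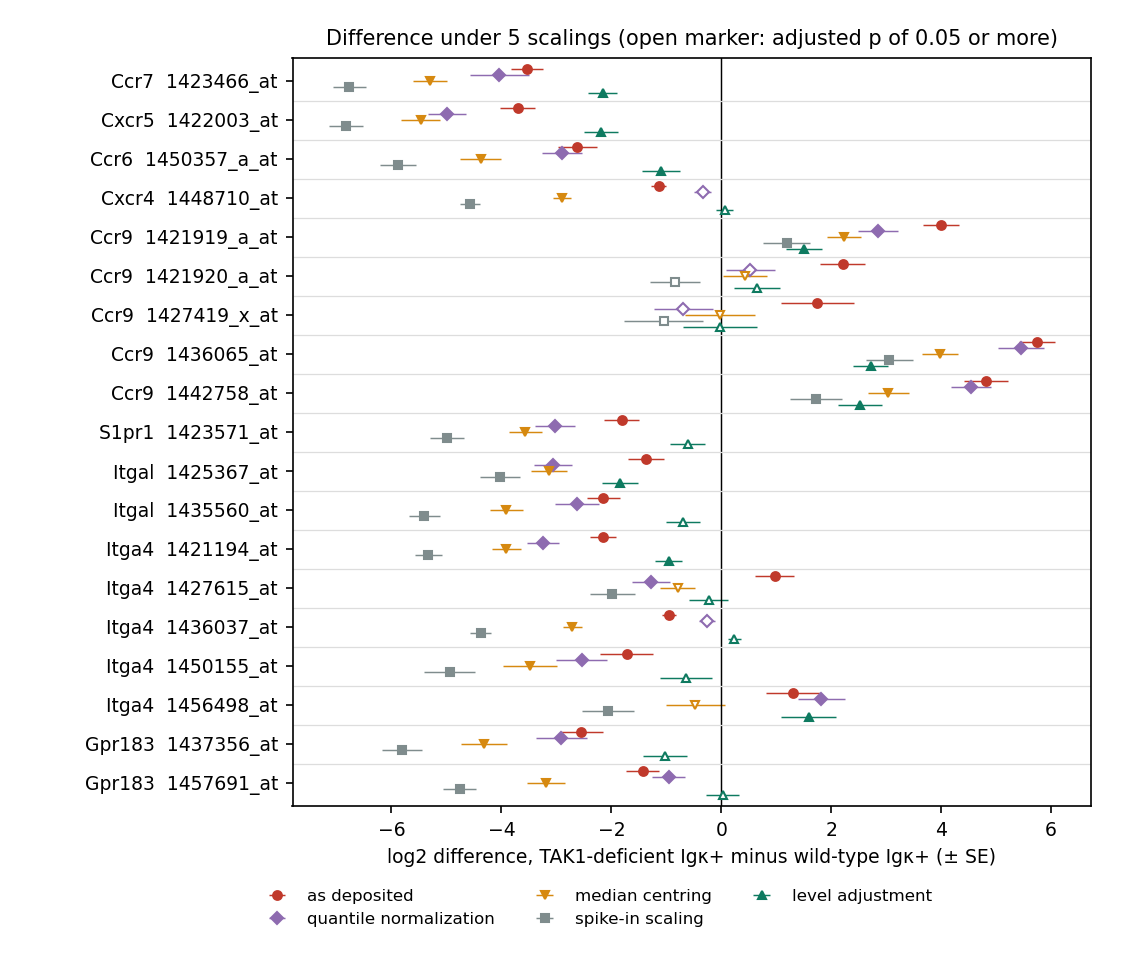
Log2 difference of TAK1-deficient minus wild-type Igκ+ cells (± SE) for each probe set as deposited and under 4 other scalings, with open markers where the adjusted p is 0.05 or more. Ccr7, Cxcr5 and Ccr6 stay left of 0 and filled under all 5, while the level-adjusted marker of Cxcr4 is open at 0.06.

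**Figure D3:**
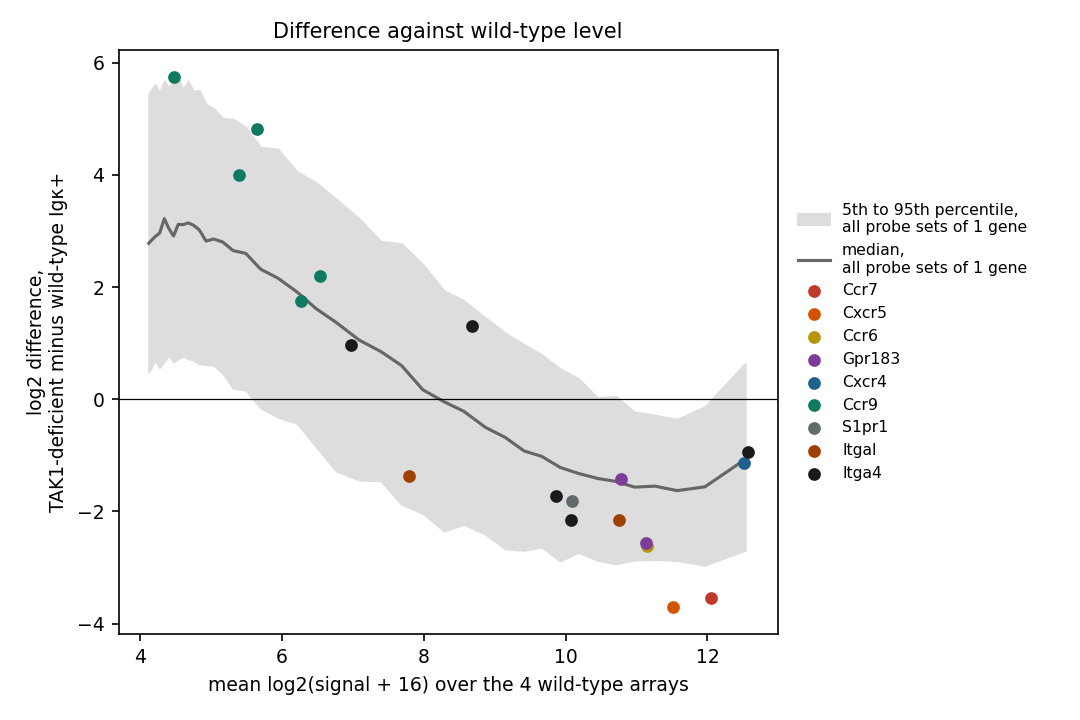
Log2 difference of each member probe set against its mean log2(signal + 16) over the 4 wild-type arrays, with the median and the 5th to 95th percentile of all single-gene probe sets. Ccr7 (-3.54) and Cxcr5 (-3.70) lie below the band, and the Ccr9 probe sets lie at the low-level end.

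In the comparison of TAK1-deficient Igκ+ with wild-type Igλ+ cells, which differ in genotype and light chain, 11 of the 19 probe sets were lower and 5 higher (26.5% and 49.6% of all). It shares the TAK1-deficient arrays with the comparison above, so its values are not independent of it. Log2 differences were -3.49 for Ccr7, -3.62 for Cxcr5, -2.31 for Ccr6, -1.18 for Cxcr4 and -2.05 for S1pr1, and 4.75 for the leading Ccr9 probe set. The 3 that did not pass were 1427419_x_at of Ccr9 (1.10, adjusted p = 0.169), and 1427615_at (0.46, adjusted p = 0.259) and 1450155_at (-1.16, adjusted p = 0.0569) of Itga4. After level adjustment 3 were lower and 3 higher, against 20.6% and 21.4% of all probe sets: Ccr7 (-2.11, adjusted p = 0.00112), Cxcr5 (-2.10, adjusted p = 0.00215) and 1425367_at of Itgal were lower, and 1436065_at and 1442758_at of Ccr9 and 1456498_at of Itga4 were higher. Ccr6 was not past the threshold there (-0.79, adjusted p = 0.107). Without TAK1-deficient replicate 2, 3 of the 19 were higher in place of 5.

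The comparison within wild-type cells asked whether light chain, at the same genotype, separates these genes. None of the 19 probe sets was called between wild-type Igλ+ and Igκ+ cells, nor was any of the 34945 (limma; 0 members and 630 of all had an unadjusted p under 0.05). The log2 difference, Igλ+ minus Igκ+, was -0.05 (95% interval -0.73 to 0.64) for Ccr7, -0.08 (-0.84 to 0.68) for Cxcr5, -0.31 (-1.13 to 0.51) for Ccr6, 0.04 (-0.28 to 0.37) for Cxcr4 and 0.24 (-0.50 to 0.99) for S1pr1. For the leading probe sets of Ccr9, Itgal, Itga4 and Gpr183 it was 0.06 (-0.87 to 0.99), -0.01 (-0.71 to 0.70), -0.02 (-0.33 to 0.28) and -0.14 (-0.86 to 0.57). Of these 9 intervals, those of Cxcr4 and Itga4 were the narrowest. In all, 3 probe sets did not overlap between the light chains, 1421919_a_at of Ccr9 (0.77) and 1427615_at of Itga4 (0.51) higher in Igλ+ cells and 1421194_at of Itga4 (-0.55) lower, against 18.6% and 8.22% of all probe sets.

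Gaps between the arrays of a pair were set beside the difference of the light chain means. For 17 of 19 probe sets the gap within the Igλ+ or the Igκ+ pair was larger than the difference of the group means, against 84.2% of all probe sets, and for 12 it was larger in both pairs, against 46.2%. A gap between 2 single arrays varies more than a difference of means of 2 arrays. These counts therefore cannot tell whether light chain matters for the members. Ccr7, Cxcr5, Ccr6, Cxcr4, both Gpr183 probe sets and 1425367_at of Itgal were higher on Igλ+ replicate 1 and Igκ+ replicate 2 than on the other two wild-type arrays, a grouping seen after the values were known. Cxcr5 deviated from the mean of the 4 arrays by 0.39, -0.47, -0.18 and 0.26 on Igλ+ replicates 1 and 2 and Igκ+ replicates 1 and 2, and Ccr6 by 0.38, -0.69, 0.03 and 0.28. The summed NK cell markers were 2380 and 1060 on the Igλ+ replicates and 1148 and 3489 on the Igκ+ replicates, the granulocyte markers 37440 and 333 on the Igλ+ replicates and 5261 and 318 on the Igκ+ replicates, and their part in the result was not tested.

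**Figure D4:**
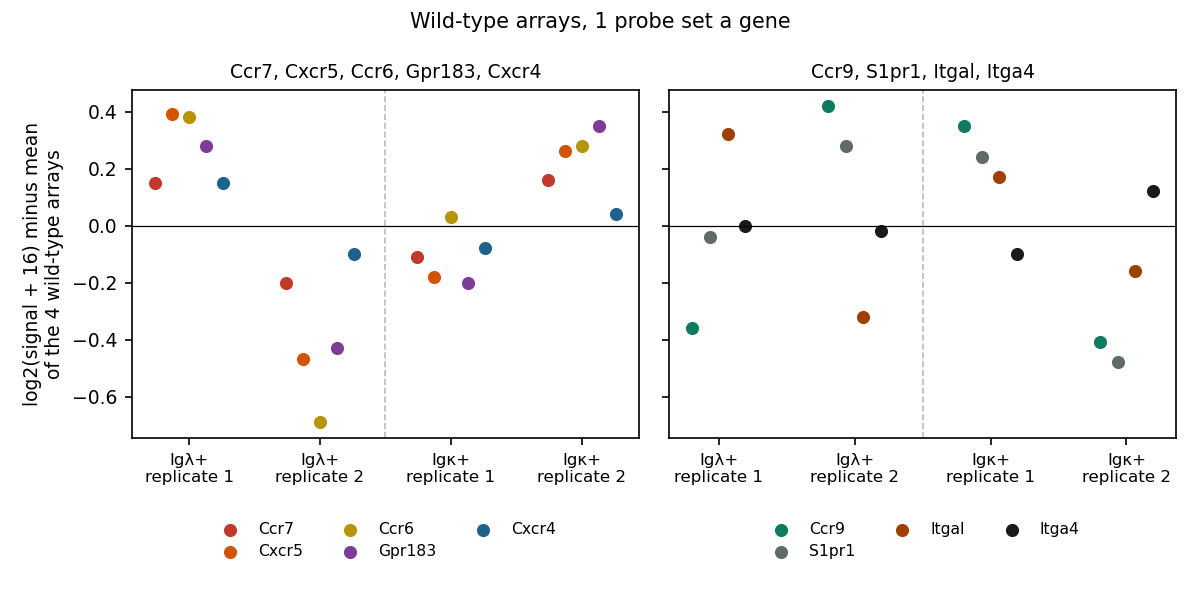
Deviation of each leading probe set from its mean over the 4 wild-type arrays (log2 units), by array. Ccr7, Cxcr5, Ccr6, Gpr183 and Cxcr4 are above 0 on Igλ+ replicate 1 and Igκ+ replicate 2, and Ccr9 and S1pr1 are highest on Igλ+ replicate 2.

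Genes around these receptors were read as lists as deposited and after level adjustment, by leading probe sets, in the comparison of genotypes within Igκ+ cells, where 48.2% of 18193 genes were called higher and 32.1% lower, with a median log2 difference of 0.84. After level adjustment these shares were 24.5% and 16.4% and the median 0.06. The shares cover all wild-type levels, and the list counts were not matched for level. As deposited, 85.3% of probe sets in the highest 2 deciles of wild-type level were lower, and 85.7% in the lower 5 were higher. Of 17 other chemokine receptor genes 11 were higher and 1, Ackr4, lower (median 2.64), and after level adjustment 3 were higher (Ccr1, Ccr3 and Cx3cr1) and 3 lower (median -0.14), with 4 higher and 6 lower under spike-in scaling. Under that scaling 15.8% of all probe sets were higher and 53.6% lower. The 3 lower after adjustment, Ccr10, Ccrl2 and Cmklr1, were dim on the TAK1-deficient arrays (38.7 and 13.9, 46.7 and 79, and 37.3 and 9.16). The 95th percentile of controls with no target was 77.7 and 75.7 on these arrays. As deposited, Cmklr1 was called higher (1.11, limma adjusted p = 0.0412). The 4 named by size of change were Cx3cr1, Cxcr2, Ccr3 and Ccr1. In TAK1-deficient cells Cx3cr1 had 656 and 667, Cxcr2 379 and 403 and Ccr3 412 and 430, against at most 79.6, 59.2 and 17.5 on any wild-type array, while Ccr1 had 1023 and 1251 in TAK1-deficient cells, 123 and 103 in wild-type Igλ+ cells and 131 and 42.8 in wild-type Igκ+ cells (3.63, adjusted p = 0.000218, and 2.26 after adjustment, adjusted p = 0.00733, but 0.41 under spike-in scaling, adjusted p = 0.479). Cxcr2 and Cx3cr1 also stand among the granulocyte and the monocyte markers. The 11 granulocyte markers summed to 8896 and 9491 in TAK1-deficient cells, 37440 and 333 in wild-type Igλ+ cells and 5261 and 318 in wild-type Igκ+ cells, with 3 called higher (Ltf, Mmp8 and Cxcr2) and 0 after level adjustment. The 8 monocyte and macrophage markers summed to 4268 and 4512 in TAK1-deficient cells, 16460 and 5328 in wild-type Igλ+ cells and 6687 and 4264 in wild-type Igκ+ cells, with Cx3cr1 and Adgre1 called higher and Ms4a6c lower. After level adjustment Cx3cr1 was higher and Ms4a6c lower. Ms4a6c had 362 and 555 in TAK1-deficient cells, 4704 and 4957 in wild-type Igλ+ cells and 4447 and 3501 in wild-type Igκ+ cells. It made up most of the sum on the wild-type arrays except Igλ+ replicate 1. The part of such cells in these values was not tested. All 4 measured ligands were higher, and 1, Cxcl13, the ligand of CXCR5, was higher after level adjustment and under spike-in scaling, with 2251 and 1976 in TAK1-deficient cells, 38.7 and 27.5 in wild-type Igλ+ cells and 46.3 and 20.2 in wild-type Igκ+ cells (5.48, adjusted p = 1.73e-05, and 3.15, adjusted p = 0.000922, after adjustment). Ccl20 had 253 and 32.3 in TAK1-deficient cells, the latter at control level. Ccl25 was called lower under spike-in scaling. Of 8 stromal and endothelial markers 7 were also higher, 3 of them after level adjustment, with summed signals of 5441 and 5371 in TAK1-deficient cells, 1054 and 1000 in wild-type Igλ+ cells and 1302 and 1131 in wild-type Igκ+ cells, and their part in the Cxcl13 value was not tested. Cxcl12 was counted both among the ligands and among these markers. Of 13 genes of the lipid ligand system 5 were higher and 6 lower, and after level adjustment 3 higher and 4 lower. The lower ones included Hsd3b7, which was at control level on the TAK1-deficient arrays (12.6 and 9.16). Sphk1, which makes sphingosine 1-phosphate, had 259 and 252 in TAK1-deficient cells, Ch25h, which makes 25-hydroxycholesterol, 367 and 417, and Cyp7b1, which acts on it in turn, 245 and 178, against at most 11.4, 17.6 and 12.8 on any wild-type array. Sphk1 and Cyp7b1 were at control level on all 4 wild-type arrays, so no fold is given for them. The fourth named by size of change was Sgpl1, which degrades sphingosine 1-phosphate (lower, -2.66, adjusted p = 2.7e-05, and -1.15 after adjustment, adjusted p = 0.00342), whose other probe set had the opposite sign.

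Of the genes that carry the receptor signal, 14 of 19 were lower and 0 higher (median -1.47), and 4 lower and 3 higher after level adjustment (median -0.29), where 16.4% and 24.5% of all genes were lower and higher. The lower ones included Gnai3, a Gi α subunit (-2.71, adjusted p = 6.91e-05, and -1.18 after adjustment, adjusted p = 0.00685), and Rac1, a GTPase of cell movement (-2.52, adjusted p = 1.77e-05, and -1.13 after adjustment, adjusted p = 0.00213), 1 of whose 3 probe sets had the opposite sign. Of 10 genes of inside-out integrin activation 7 were lower and 2 higher, and after level adjustment 1 lower and 1 higher. Of 16 integrin and adhesion genes 8 were lower and 3 higher, and after level adjustment 5 lower and 2 higher (median -0.42), against the same 16.4% and 24.5%. Madcam1 was lower only after adjustment, and its signals on the TAK1-deficient arrays (37.8 and 18.3) were at control level. All 5 regulators of homing receptor genes were lower, 2 of them after level adjustment: Rela, an NF-κB subunit, had 247 and 138 in TAK1-deficient cells, 2016 and 1364 in wild-type Igλ+ cells and 1669 and 1626 in wild-type Igκ+ cells (-3.05, adjusted p = 0.000112, and -1.62 after adjustment, adjusted p = 0.00871), and Klf2, which promotes S1pr1 transcription, had -2.25 (adjusted p = 5.73e-05) and -0.86 (adjusted p = 0.00833). Most regulators and most signalling genes were bright in wild-type cells. In the highest 2 deciles of wild-type level 85.3% of all probe sets were lower as deposited.

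Stage genes, a list added after the values were known, are given beside the receptors because several of these receptors rise as B cells mature. Of 5 mature B cell genes 4 were lower (1 after level adjustment, with 2 higher, and all 5 under spike-in scaling and under median centring), with summed signals of 14945 and 17473 in TAK1-deficient cells, 32784 and 28433 in wild-type Igλ+ cells and 29371 and 33366 in wild-type Igκ+ cells. Of all genes 32.1% were lower, and 16.4% after level adjustment. Of all probe sets 53.6% were lower under spike-in scaling and 46.5% under median centring. These 5 genes lie in the highest 2 deciles of wild-type level, where 85.3% of all probe sets were lower, and 21.2% after level adjustment. Of 7 pro-B and pre-B genes 3 were higher than in wild-type Igκ+ cells, Rag1, Rag2 and Il7r, against 48.2% of all genes, and 3 after level adjustment, Rag2, Igll1 and Il7r. Under spike-in scaling 0 were higher and 4 lower (15.8% and 53.6% of all probe sets), and under median centring 1 higher and 1 lower (27.1% and 46.5%). Against wild-type Igλ+ cells 1 was higher and 1 lower, and 0 were called after level adjustment. Their part in the result was not tested.

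The profiles most like each member over the 6 arrays, by distance of log2(signal + 16) from its own mean, are named without any claim of shared control. For Ccr7 they were Pxn and Man1a (distances 0.261 and 0.281), for Cxcr5 Stn1 and Mtg1 (0.303 and 0.38), for Ccr6 Mapk11 and Wdr4 (0.327 and 0.435) and for Cxcr4 Cd47 and Mettl3 (0.101 and 0.116). For Ccr9 they were Pm20d2 and H60c (0.205 and 0.233), for S1pr1 Trak2 and Paxip1 (0.212 and 0.23), for Itgal Fam102a and Hnrnpab (0.139 and 0.185), for Itga4 Myo1c and Rpl22 (0.0654 and 0.0739) and for Gpr183 Orc2 and Dnaja1 (0.259 and 0.269). Such likeness is common in these data but varied by member. Of 18193 genes, from 830 (with Gpr183) to 6327 (with Ccr9) had a correlation above 0.95, and 3847 with Ccr7.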

How the data were processed

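The deposited values are probe set signals, linear array intensities. Per the submitters' processing notes, the authors used MAS5, of unstated version. Names came from the array's annotation table, in which 34945 probe sets carried 1 symbol, 932 several, 9160 none listed and 64 were controls. Entrez identifiers of 34741 were found in RefSeq, used for names only.

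Signals were converted to log2(signal + 16), which understates the change of dim probe sets. Limma (3.58.1, R 4.3.3) fitted 1 mean per group to all 6 arrays (3 residual degrees of freedom), with eBayes and a mean-variance trend. P-values were two-sided, Benjamini-Hochberg adjusted over all 34945 probe sets, with a threshold of 0.05 and no filter. The level adjustment used a lowess span of 0.2. Members, lists, tests and alternatives were chosen with earlier results of these data known. Genes of other homing lists were named in order of absolute log2 change among called genes whose groups do not overlap, at most 4 a list, with marker genes chosen after their values were seen, and like genes by the smallest distance over 6 arrays. The code was tested on simulated data. The number of arrays limits the precision. Alternatives were other pseudocounts, filters and scalings, 1 probe set per gene, no trend, only the 4 arrays compared, the replicate number as a block and leaving out each array. Figures were drawn with matplotlib 3.10.9 (Python 3.11.15).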

Additional observations from a re-analysis of the deposited data

How the results depend on the processing

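Against wild-type Igκ+ cells, the 12 lower probe sets became 5 with the level adjustment and 10 to 12 without 1 array. The 7 higher became 3 with the filter at the 60th percentile, 4 with quantile normalization, 3 with spike-in scaling, 3 with median centring, 1 with 1 probe set per gene (9 tested), 4 with the level adjustment and 4 to 6 without 1 array. Against wild-type Igλ+ cells, the 11 lower became 3 with the level adjustment and 10 to 12 without 1 array, and the 5 higher became 3 with the 60th percentile filter, 2 with spike-in scaling, 3 with median centring, 1 with 1 probe set per gene, 3 with the level adjustment and 3 to 5 without 1 array. By leading probe sets the level adjustment turned Cxcr4 to 0.06, Itga4 to 0.24 and Gpr183 to 0.03 against wild-type Igκ+ cells, and to 0.02, 0.26 and 0.17 against wild-type Igλ+ cells. The adjustment takes off the trend at each wild-type level. As deposited, these 3 had -1.14, -0.95 and -1.43 against wild-type Igκ+ cells, where the medians of their deciles were -1.48, -1.48 and -1.44. The cause of that trend was not tested. Of all called probe sets, 66% were higher as deposited (median log2 difference of all probe sets 1.06), 54.7% with the level adjustment (0.00), 22.8% with spike-in scaling (-1.48), 36.8% with median centring (-0.70) and 44.1% with quantile normalization (-0.19).

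Between wild-type Igλ+ and Igκ+ cells no member was called in any setting, and these directions turned: Cxcr4 to -0.14 with spike-in scaling and -0.08 with median centring, Ccr9 to -0.08 with spike-in scaling, -0.07 with median centring and -0.16 with quantile normalization, and Itgal to 0.01 with quantile normalization. Without 1 array the ranges were -0.22 to 0.12 for Ccr7, -0.51 to 0.35 for Cxcr5, -0.84 to 0.22 for Ccr6, -0.08 to 0.17 for Cxcr4, -0.33 to 0.44 for Ccr9, -0.12 to 0.60 for S1pr1, -0.33 to 0.31 for Itgal, -0.14 to 0.09 for Itga4 and -0.50 to 0.21 for Gpr183.

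With the replicate number as a block, 12 probe sets were lower and 7 higher against wild-type Igκ+ cells, and 12 lower and 5 higher against wild-type Igλ+ cells. The correlations of same-numbered arrays' deviations were 0.00189, 0.00554 and 0.21, so the numbers were not taken to pair the arrays. The calls of 1456498_at (Itga4) were also lost with a pseudocount of 64, without a trend and with only the 4 arrays compared, that of 1427615_at (Itga4) with a pseudocount of 1, and that of 1427419_x_at (Ccr9) without a trend. Signal over background limited 1436065_at of Ccr9 in wild-type cells and 1425367_at of Itgal on 1 TAK1-deficient array.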
